A study of Homo sapiens with 24 samples.

Results

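The genes described here are 10 human factors that write, read or act on methylation of lysine 9 of histone H3 (H3K9) and on the HUSH (human silencing hub) complex, and that are known for silencing retroelements. They were chosen by symbol: the methyltransferases SETDB1, SUV39H1, SUV39H2, EHMT1 and EHMT2, the co-repressor TRIM28, the reader CBX5, the HUSH subunits MPHOSPH8 and FAM208A (also called TASOR), and the HUSH partner MORC2. All 10 were found among the 52994 genes to which the deposited transcripts could be assigned. A gene's level is the sum of the scaled reads of its transcripts, that is, reads divided by 1 size factor per library. EHMT2 held no read in any of the 24 libraries, and the other 9 genes passed the filter of 10 or more scaled reads in at least 3 libraries at both harvests.

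The cells were the established human acute myeloid leukaemia lines UCSD-AML1 and ELF-153. In the treated groups, UCSD-AML1 or ELF-153 received 100 nM decitabine (DAC), a nucleoside drug that depletes DNA methyltransferases, on 4 consecutive days with fresh medium and drug each day; the untreated groups received none. RNA was taken at 96 h or 144 h, and every group grew with GM-CSF (5 ng/ml) in RPMI holding 20% serum. Stranded, ribosomal-RNA-depleted total RNA was sequenced in 8 groups (2 lines, 2 treatments, 2 harvests) with 3 libraries in each. As the labels call these technical triplicates, p-values reflect only the spread among such libraries, which may be technical. The 96 h and 144 h libraries were scaled in separate tables, and the 2 harvests are given side by side with no test between them.

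The libraries held 13.15 to 28.28 M assigned reads (M for mega) at 96 h and 15.1 to 28.53 M at 144 h. Mitochondrial ribosomal RNA took an uneven share of these reads. It averaged 62.9% ± 1.1 in DAC-treated UCSD-AML1, against 50.1% ± 1.1 in untreated UCSD-AML1, and 43.4% ± 6.3 in DAC-treated ELF-153, against 25.2% ± 11.1 in untreated ELF-153, at 96 h (SD, n = 3 libraries each). At 144 h it averaged 51.2% ± 10.8 in DAC-treated and 49.4% ± 4.3 in untreated UCSD-AML1, and 47.0% ± 5.8 in DAC-treated and 24.3% ± 12.1 in untreated ELF-153. Within untreated ELF-153, replicate 1 stood apart from the others, at 13.1% at 96 h (35.0% and 27.4% in the others) and at 38.2% at 144 h (16.6% and 18.1% in the others). For this reason each result was also computed with the share as a covariate. Except in UCSD-AML1 at 144 h, the shares of DAC-treated and untreated libraries of a line did not overlap. Those of the untreated lines did not overlap at either harvest. In these comparisons the share therefore cannot be told apart from treatment or line, and a call that the covariate ended is not read as due to the share. Of 8 progenitor markers, FLT3 was at 0 in UCSD-AML1 and MPO at 0 in ELF-153 at 144 h, and the epithelial marker EPCAM was at 0 in every group.

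H3K9 methylation marks heterochromatin. SETDB1 is brought to retroelements by TRIM28, which binds KRAB zinc finger proteins; SUV39H1 and SUV39H2 trimethylate H3K9 in constitutive heterochromatin; EHMT1 and EHMT2 form a heteromer that lays down the lower methylation states. CBX5 (HP1 alpha) binds the methylated histone, and HUSH, built on FAM208A with the chromodomain protein MPHOSPH8 and periphilin, spreads the mark over young LINE-1 elements with SETDB1 and the ATPase MORC2.

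SUV39H1, CBX5 and MORC2 were the 3 members that passed the test of a DAC change in the most comparisons, though MORC2 did not pass in ELF-153 at 96 h. These 3 were chosen after their values were seen. Their promoters are shown because DAC lowers methylation of CpG sites and the windows differ in CpG content. They are RefSeq sequences of GRCh38.p14 that reach from 250 bases before to 50 bases after a start site, 5′ to 3′ on the gene's strand. Capitals mark a CCAAT box, read as ATTGG where it lies on the opposite strand.
SUV39H1, chrX:48696484-48696783, plus strand: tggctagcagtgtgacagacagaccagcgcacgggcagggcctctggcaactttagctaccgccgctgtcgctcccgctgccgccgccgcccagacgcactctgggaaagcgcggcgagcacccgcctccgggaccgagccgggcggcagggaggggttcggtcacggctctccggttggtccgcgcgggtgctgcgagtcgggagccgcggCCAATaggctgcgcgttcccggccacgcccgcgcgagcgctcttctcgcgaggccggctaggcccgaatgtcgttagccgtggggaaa
CBX5, chr12:54280073-54280372, minus strand: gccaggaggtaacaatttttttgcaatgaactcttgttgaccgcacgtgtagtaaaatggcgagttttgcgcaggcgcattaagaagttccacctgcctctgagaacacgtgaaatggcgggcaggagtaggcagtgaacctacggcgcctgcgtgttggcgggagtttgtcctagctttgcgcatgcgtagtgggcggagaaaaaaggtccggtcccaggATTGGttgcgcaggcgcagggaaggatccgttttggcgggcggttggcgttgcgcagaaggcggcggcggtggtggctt
MORC2, chr22:30968725-30969024, minus strand: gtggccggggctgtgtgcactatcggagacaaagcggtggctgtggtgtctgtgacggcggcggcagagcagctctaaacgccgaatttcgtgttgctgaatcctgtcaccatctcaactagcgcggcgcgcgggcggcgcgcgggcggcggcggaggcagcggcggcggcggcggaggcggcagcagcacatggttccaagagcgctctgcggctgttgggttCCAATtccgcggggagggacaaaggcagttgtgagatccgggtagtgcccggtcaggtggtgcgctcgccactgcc
The SUV39H1 window shown holds 42 CpG sites, the MORC2 window 35 and the CBX5 window 25. The median was 14 over all 35116 promoters in the table and 25 over the 15 windows of the members. The GC content of the windows shown is 72.0%, 67.7% and 57.3% in that order of genes. Its median was 58.7% over all promoters and 66.7% over the members. Other windows of SUV39H1 (7 CpG sites) and CBX5 (4 and 6) are not shown. The MORC2 start site lies at -476 from the start of MORC2-202, its main transcript, so the window ends before that start. The CCAAT box lies at position -38 in SUV39H1 and -26 in MORC2 (each on the gene's own strand) and -29 in CBX5 (on the strand opposite to the gene), counted from the start site. The SUV39H1 start site lies 139 bases after the start of SUV39H1-202, its main transcript, so the SUV39H1 box lies after that transcript start. A CCAAT box (CCAAT, both strands) was in a window of 5 of the 9 members with a promoter in the table (SUV39H1, CBX5, MPHOSPH8, FAM208A and MORC2) and in 8 of the 15 windows of the 9 members, against 34.6% of all single windows. Overlapping windows of CBX5 and of FAM208A hold the same box and are counted separately. A member with several windows can hold a box in any of them, so the share of single windows is not a like measure for the count of members. The cell-cycle element CHR (TTTGAA) was in a window of SUV39H2 and of FAM208A, 2 of 15 windows, against 15.2% of all single windows. None of the 9 held an E2F site in the forms searched (TTTCCCGC, TTTGGCGC, TTTGCCGC or TTTCGCGC, which occur in 3.31% of all windows) or the canonical NRF1 site (1.24%). Forms that end otherwise were not searched, and the similar TTTGGCGG is in the CBX5 window shown and in a window of FAM208A. The absence of the searched forms is therefore not read as the absence of E2F sites. The letters describe the windows only, and methylation was not measured here. No window is given for TRIM28. In GENCODE 29 (GRCh38) SUV39H1 lies at chrX:48695554-48709012 (plus strand), CBX5 at chr12:54230940-54280133 (minus strand) and MORC2 at chr22:30925130-30968298 (minus strand).

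DAC moved the silencing genes in different directions. SUV39H1 and CBX5 fell in both lines at both harvests, to between 0.189-fold and 0.406-fold of the untreated level. MORC2 rose in UCSD-AML1 at both harvests and in ELF-153 at 144 h. The remaining writers, TRIM28 and FAM208A passed the test in 1 or 2 of the 4 comparisons, and MPHOSPH8 in none. In UCSD-AML1 at 96 h, 1 of the 9 tested members rose and 4 fell, where 19.7% of all 18799 genes tested rose and 19.6% fell (limma, Benjamini-Hochberg adjusted p under 0.05). In UCSD-AML1 at 144 h, 2 rose and 4 fell, where 20.0% of 18293 genes rose and 26.2% fell. In ELF-153 at 96 h, 3 members fell and none rose by limma, by edgeR or at an unadjusted p under 0.05, where 20.1% of genes rose and 12.7% fell. In ELF-153 at 144 h, 1 rose and 3 fell, where 20.4% of genes rose and 18.0% fell. The libraries of the 2 treatments did not overlap for 6 members in UCSD-AML1 at 96 h (DAC above in 1 and below in 5, against 26.7% and 29.7% of all genes), 5 in ELF-153 at 96 h (0 and 5, against 24.4% and 17.9%), 7 in UCSD-AML1 at 144 h (3 and 4, against 23.8% and 31.2%) and 4 in ELF-153 at 144 h (1 and 3, against 25.9% and 23.9%). The median log2 change over the 9 members was -0.48 (UCSD-AML1, 96 h), -0.53 (ELF-153, 96 h), -0.77 (UCSD-AML1, 144 h) and -0.23 (ELF-153, 144 h), against -0.02, 0.16, -0.12 and 0.11 over all genes tested in the same order. Fewer cells of a type and less RNA per cell cannot be told apart in these bulk libraries.

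**Figure D1:**
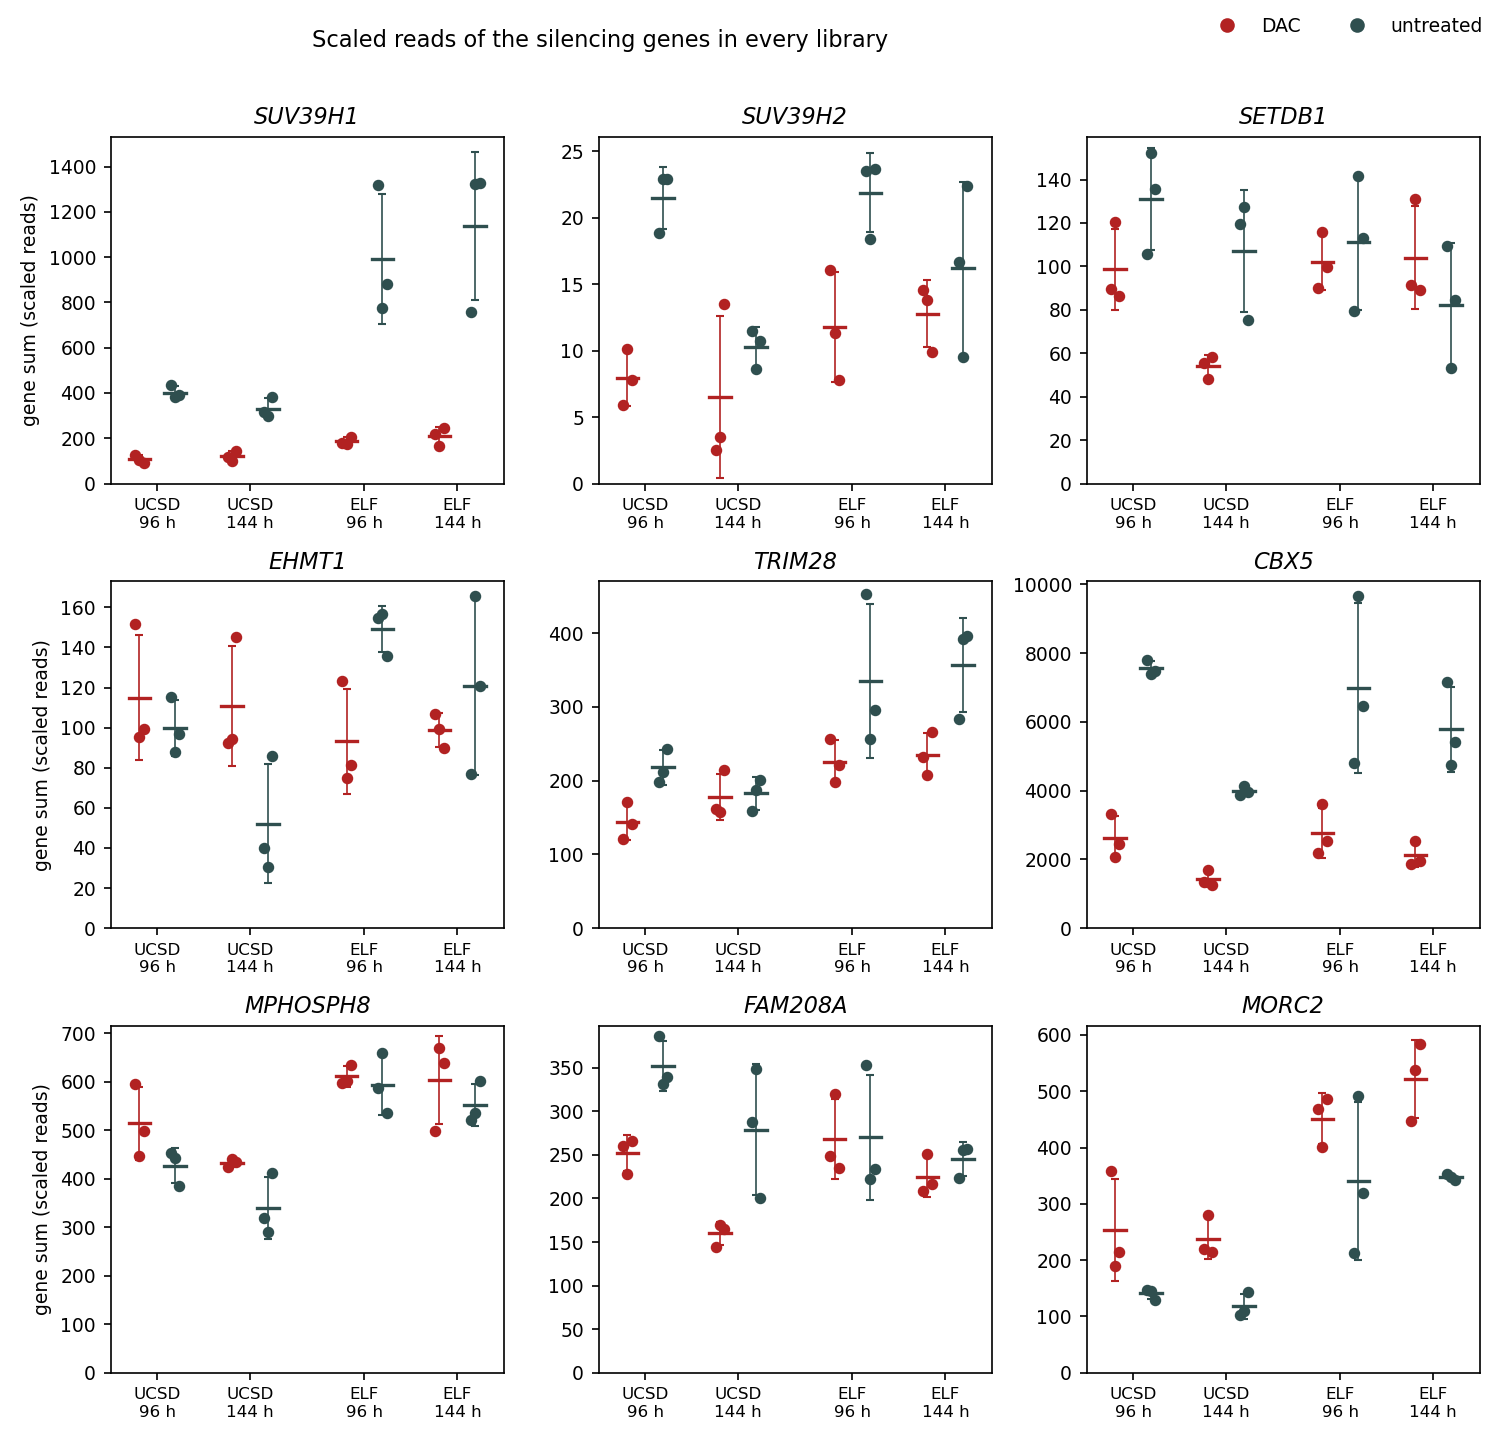
Scaled reads of the 9 tested members in each of the 24 libraries, 1 panel per gene with its own linear axis; UCSD stands for UCSD-AML1 and ELF for ELF-153, points are libraries (DAC red, untreated dark) and bars are the mean ± SD of 3. The DAC points of SUV39H1 and CBX5 lie below the untreated points in each line and harvest.

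**Figure D2:**
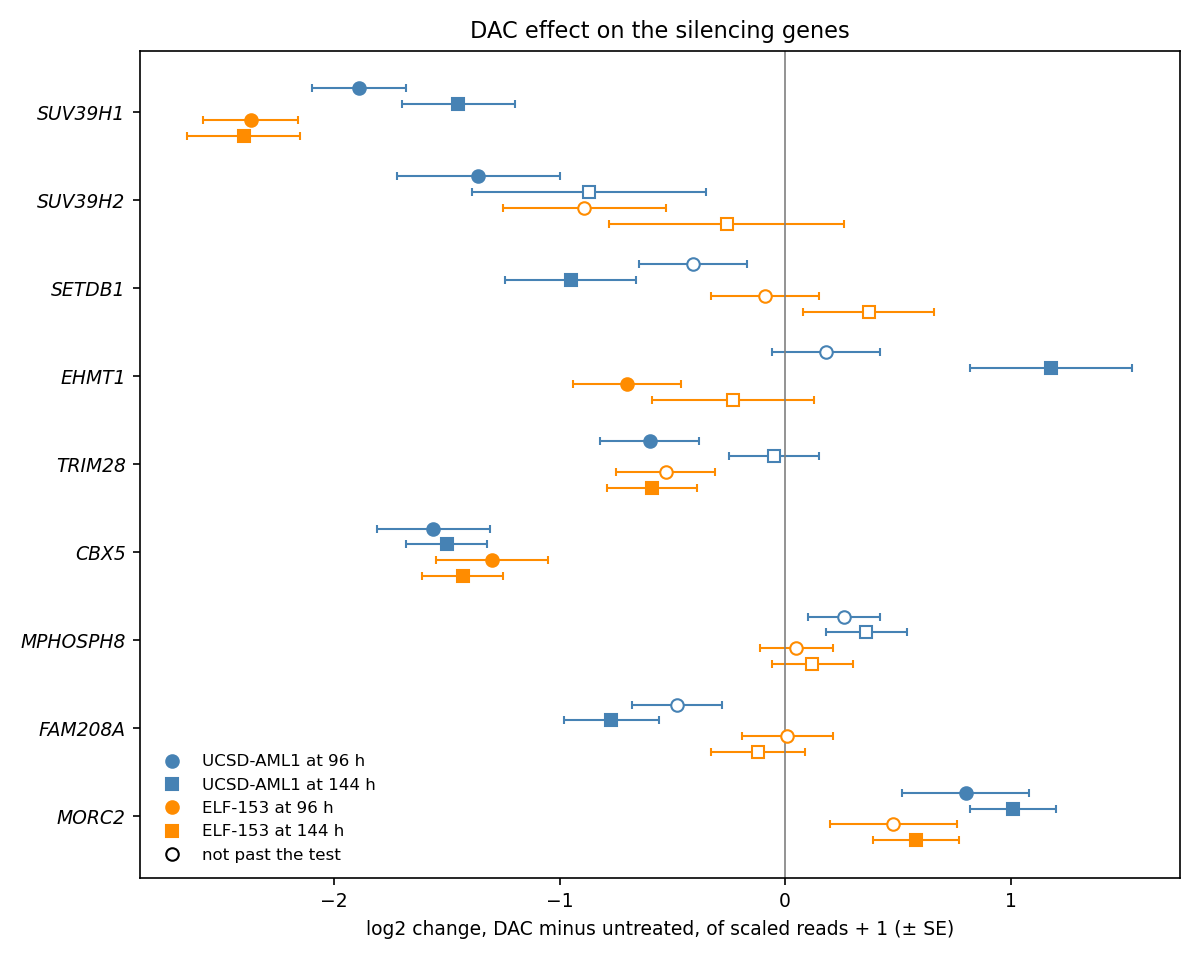
Log2 change (DAC minus untreated) of the 9 members in each line and harvest, with its standard error from limma; filled symbols passed an adjusted p of 0.05. SUV39H1 lies between -2.40 and -1.45 and CBX5 between -1.56 and -1.30, while MORC2 lies between 0.48 and 1.01.

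Among the writers, SUV39H1 showed the largest fall of the 9 tested members in 3 of the 4 comparisons; in UCSD-AML1 at 144 h CBX5 fell slightly more. In UCSD-AML1 at 96 h it held 127.9, 105.7 and 92.3 scaled reads with DAC, against 434.1, 382.2 and 391.0 untreated. ELF-153 cells at 96 h held 179.0, 173.6 and 206.4 with DAC, against 1319.5, 775.4 and 882.1 untreated. Every treated library lay below every untreated one of its line, and untreated ELF-153 replicate 1, the library with the lowest mitochondrial share, was the highest. The log2 change was -1.89 ± 0.21 (SE) in UCSD-AML1 (adjusted p = 1.02e-05) and -2.37 ± 0.21 in ELF-153 (adjusted p = 1.23e-06). At 144 h SUV39H1 held 119.3, 98.8 and 145.2 scaled reads in DAC-treated UCSD-AML1, against 314.8, 296.2 and 382.9 in untreated cells. In ELF-153 at 144 h it held 218.5, 166.1 and 244.9 with DAC, against 758.6, 1324.2 and 1325.0 untreated. The groups again did not overlap, and the lowest untreated ELF-153 library was replicate 1, the one with the highest mitochondrial share of its group. The log2 change was -1.45 ± 0.25 in UCSD-AML1 (adjusted p = 0.000453) and -2.40 ± 0.25 in ELF-153 (adjusted p = 6.59e-06). All 4 calls held in each of 17 alternatives, with log2 changes of -2.01 to -1.53 and -2.53 to -1.86 at 96 h and -1.59 to -1.24 and -2.67 to -1.66 at 144 h (UCSD-AML1 first). With the mitochondrial share as a covariate, the change was -1.53 and -1.86 at 96 h and -1.39 and -1.66 at 144 h.

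SUV39H2, the paralog of SUV39H1, was counted at low levels. It had 5.9, 10.1 and 7.8 scaled reads in DAC-treated UCSD-AML1 at 96 h, against 18.9, 22.9 and 22.9 in untreated cells. The groups did not overlap, and the log2 change of -1.36 ± 0.36 passed the test (adjusted p = 0.00845); with the mitochondrial covariate the call ended (-1.11, adjusted p = 0.0694). ELF-153 at 96 h had 16.1, 11.3 and 7.8 scaled reads of SUV39H2 with DAC, against 23.5, 18.4 and 23.7 untreated. These groups did not overlap either, yet the change of -0.89 ± 0.36 missed the threshold (adjusted p = 0.0727); without DAC-treated replicate 1 it was -1.12 and passed it (adjusted p = 0.043). At 144 h the groups overlapped in both lines. SUV39H2 then had 2.5, 3.5 and 13.5 scaled reads with DAC against 11.5, 8.6 and 10.7 untreated in UCSD-AML1 (log2 change -0.87 ± 0.52, adjusted p = 0.188), where leaving out DAC-treated replicate 3, the high one, gave -1.50 (adjusted p = 0.0203). In ELF-153 at 144 h it had 14.6, 13.8 and 9.9 with DAC against 16.7, 9.5 and 22.4 untreated (log2 change -0.26, adjusted p = 0.724).

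SETDB1, which trimethylates H3K9 at retroelements, passed the test only in UCSD-AML1 at 144 h. There it held 55.5, 48.1 and 58.5 scaled reads with DAC, against 119.4, 127.5 and 75.1 untreated. The groups did not overlap, and the log2 change was -0.95 ± 0.29 (adjusted p = 0.0185). The call ended without untreated replicate 1 (-0.85, adjusted p = 0.0679), without untreated replicate 2 (-0.80, adjusted p = 0.0756), without DAC-treated replicate 2 (-0.87, adjusted p = 0.0598) and when only protein-coding transcripts were summed (-0.58, adjusted p = 0.247). In the other 3 comparisons the groups overlapped. SETDB1 held 89.5, 120.3 and 86.4 scaled reads with DAC against 105.9, 152.1 and 135.6 untreated in UCSD-AML1 at 96 h (log2 change -0.41 ± 0.24, adjusted p = 0.205), which passed only with the mitochondrial covariate (-0.83, adjusted p = 0.0161). In ELF-153 it held 90.0, 116.0 and 99.8 with DAC against 79.5, 141.4 and 113.0 untreated at 96 h (adjusted p = 0.796), and 91.4, 131.2 and 88.9 with DAC against 109.6, 53.3 and 84.3 untreated at 144 h (adjusted p = 0.351).

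EHMT1 (GLP), a writer of the lower H3K9 methylation states, fell in ELF-153 at 96 h and rose in UCSD-AML1 at 144 h. Its sum rests on the 18 of its 52 GENCODE 29 transcripts that the deposited values list. In ELF-153 at 96 h EHMT1 had 123.1, 75.0 and 81.2 scaled reads with DAC, against 154.6, 156.7 and 135.8 untreated. The groups did not overlap (log2 change -0.70 ± 0.24, adjusted p = 0.0379). That call ended in 9 of 17 alternatives, among them leaving out untreated replicate 1 (-0.68, adjusted p = 0.0724), 2 (-0.67, adjusted p = 0.0763) or 3 (-0.77, adjusted p = 0.0565) or DAC-treated replicate 2 (-0.57, adjusted p = 0.134) or 3 (-0.62, adjusted p = 0.116), and the mitochondrial covariate (-0.46, adjusted p = 0.411). In UCSD-AML1 at 144 h EHMT1 had 92.4, 94.5 and 145.2 scaled reads with DAC, against 39.8, 30.7 and 85.9 untreated. Here every treated library lay above every untreated one, and untreated replicate 3 lay close to the treated range. The log2 change was 1.18 ± 0.36 (adjusted p = 0.0183), and it missed the threshold without untreated replicate 1 (1.06, adjusted p = 0.0661) or 2 (0.88, adjusted p = 0.0859) or DAC-treated replicate 3 (0.97, adjusted p = 0.0755). In the other 2 comparisons the groups overlapped, with 95.5 to 151.5 scaled reads with DAC against 88.0 to 115.3 untreated in UCSD-AML1 at 96 h (log2 change 0.18, adjusted p = 0.591), and 90.0 to 106.9 against 76.9 to 165.8 in ELF-153 at 144 h (log2 change -0.23, adjusted p = 0.655).

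EHMT2 (G9a), the partner of EHMT1, is listed with 12 transcripts, and each was at 0 in all 24 libraries. Of 71 protein-coding genes within 500 kb of EHMT2 in GENCODE 29 (GRCh38), 57 (80.3%) were at 0 in all libraries, against 2227 of 19372 protein-coding genes overall (11.5%). The window was looked at after the zeros of EHMT2 were seen. The level of EHMT2 is therefore not read as its expression in these cells.

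TRIM28 (KAP1), the co-repressor that brings SETDB1 to KRAB zinc finger targets, fell in UCSD-AML1 at 96 h and in ELF-153 at 144 h. In UCSD-AML1 at 96 h it held 121.0, 170.8 and 140.8 scaled reads with DAC, against 198.2, 211.7 and 243.6 untreated. In ELF-153 at 144 h it held 232.2, 207.4 and 265.7 with DAC, against 283.8, 392.0 and 396.1 untreated. Neither pair of groups overlapped, and both log2 changes were small, -0.60 ± 0.22 (adjusted p = 0.0472) and -0.59 ± 0.20 (adjusted p = 0.0337). The UCSD-AML1 call ended in 12 of 17 alternatives, among them edgeR with TMM (-0.46), leaving out any untreated replicate (-0.67, -0.62 and -0.52 without replicate 1, 2 and 3) or DAC-treated replicate 1 (-0.48) or 3 (-0.59), and the mitochondrial covariate (-0.14, adjusted p = 0.601). The ELF-153 call ended in 6 of 17, among them the covariate (-0.08, adjusted p = 0.812) and leaving out untreated replicate 2 (-0.52, adjusted p = 0.113) or 3 (-0.51, adjusted p = 0.121) or DAC-treated replicate 1 (-0.59, adjusted p = 0.0798) or 2 (-0.51, adjusted p = 0.12). For TRIM28, ELF-153 at 96 h held 256.7, 198.8 and 221.1 scaled reads with DAC, against 453.7, 257.1 and 295.3 untreated. The groups touched without overlap and the change of -0.53 ± 0.22 missed the threshold (adjusted p = 0.0826), but passed it without untreated replicate 2 (-0.70, adjusted p = 0.0324). In UCSD-AML1 at 144 h the groups overlapped, with 161.3, 157.5 and 213.9 with DAC against 158.3, 187.9 and 201.6 untreated (log2 change -0.05, adjusted p = 0.873).

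CBX5 (HP1 alpha), the reader of the mark, fell about as much in both lines. In UCSD-AML1 at 96 h it held 3317.7, 2070.4 and 2442.8 scaled reads with DAC, against 7810.0, 7402.1 and 7485.8 untreated. The ELF-153 values at 96 h were 2200.2, 3598.3 and 2537.0 with DAC, against 4806.5, 9667.9 and 6451.9 untreated. No treated library reached an untreated one, and the untreated ELF-153 libraries spread most, with replicate 1 lowest and replicate 2 highest. The log2 change was -1.56 ± 0.25 in UCSD-AML1 (adjusted p = 0.000275) and -1.30 ± 0.25 in ELF-153 (adjusted p = 0.00135). At 144 h CBX5 held 1343.4, 1683.8 and 1255.3 scaled reads in DAC-treated UCSD-AML1, against 3888.0, 4137.9 and 3962.5 in untreated cells. In ELF-153 at 144 h it held 1877.4, 2548.9 and 1966.6 with DAC, against 7165.5, 4759.0 and 5423.9 untreated. The groups were again apart, with log2 changes of -1.50 ± 0.18 (UCSD-AML1, adjusted p = 3.71e-05) and -1.43 ± 0.18 (ELF-153, adjusted p = 4.57e-05). All 4 calls held in each of 17 alternatives, at -2.17 to -1.39 and -2.17 to -1.03 at 96 h and -1.62 to -1.27 and -1.89 to -1.27 at 144 h (UCSD-AML1 first). The processed copy CBX5P1, which could share reads with CBX5, held 6.8 to 71.1 scaled reads.

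Among untreated ELF-153 libraries, SUV39H1 and TRIM28 were highest and CBX5 lowest where the mitochondrial share was lowest at 96 h. With the share as a covariate, the CBX5 change became larger, -2.17 in both lines at 96 h and -1.53 (UCSD-AML1) and -1.89 (ELF-153) at 144 h, while that of SUV39H1 became smaller. In UCSD-AML1 at 144 h the shares of the groups overlapped, at 58.4%, 56.4% and 38.7% with DAC against 51.6%, 52.1% and 44.5% untreated. What part the share has in the falls of either gene was not tested beyond the covariate.

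**Figure D3:**
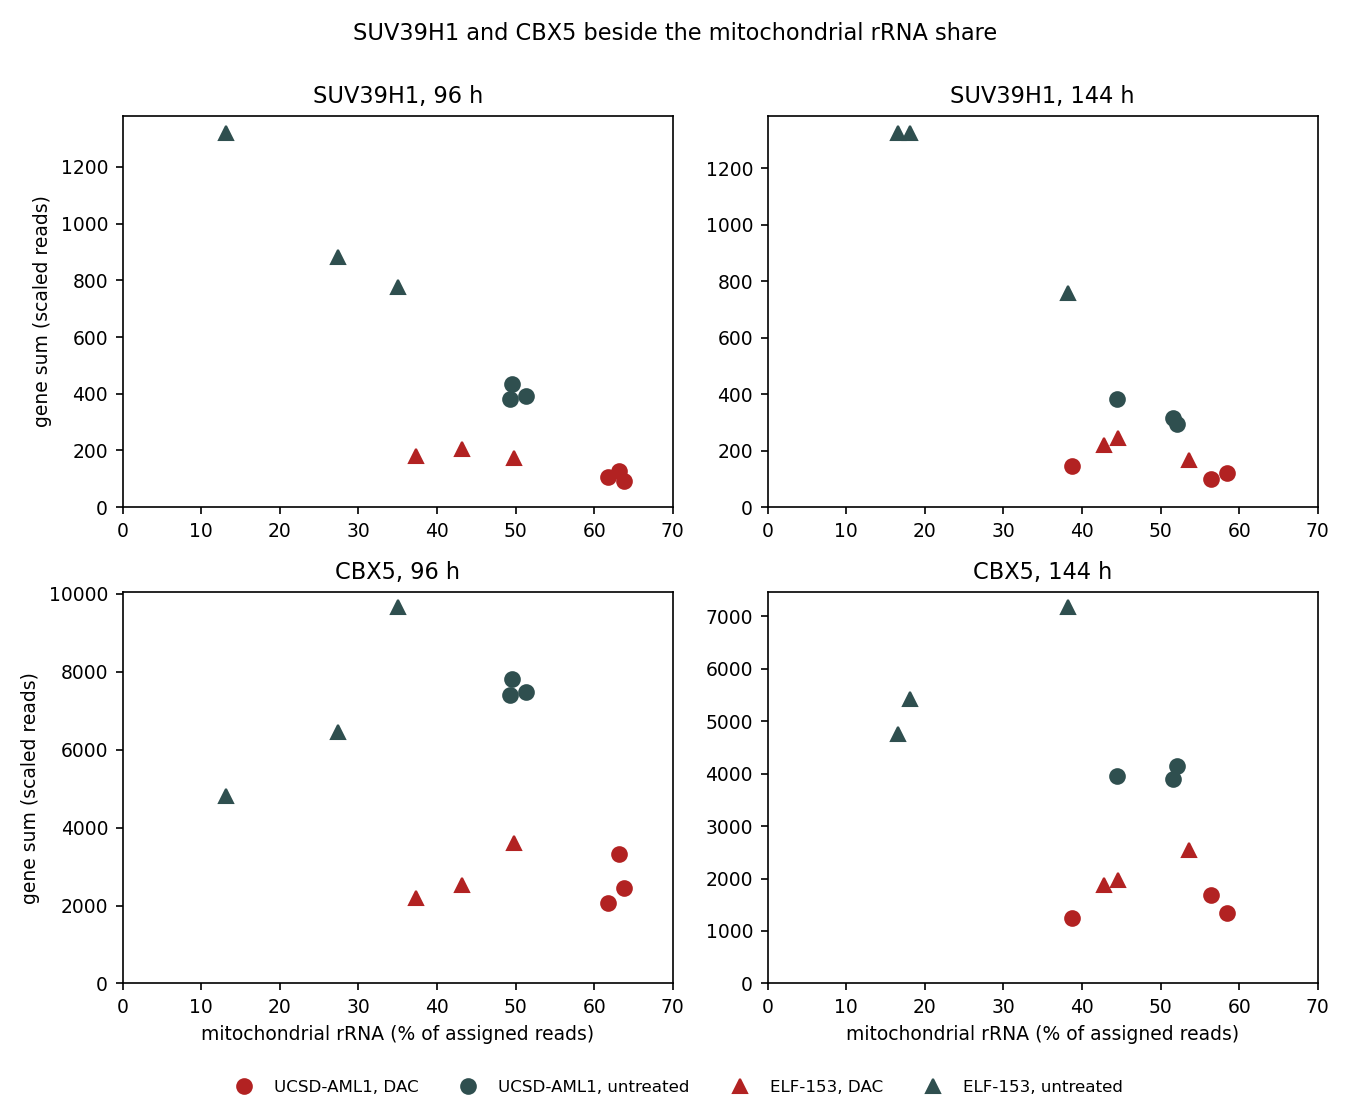
Scaled reads (linear axes) of SUV39H1 and CBX5 against the percentage of assigned reads from mitochondrial ribosomal RNA, 1 point per library, with line and treatment given by colour and marker. DAC-treated libraries lie below the untreated libraries of their line.

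In the HUSH group, MORC2, an ATPase that compacts chromatin with HUSH, was the member that rose. In UCSD-AML1 at 144 h it held 220.1, 279.9 and 215.0 scaled reads with DAC, against 101.7, 110.3 and 143.1 untreated. Every treated library lay above every untreated one (log2 change 1.01 ± 0.19, adjusted p = 0.000851), and the call held in each of 17 alternatives. In UCSD-AML1 at 96 h MORC2 held 358.0, 190.0 and 214.7 with DAC, against 146.8, 145.7 and 129.3 untreated. The groups did not overlap, with treated replicate 1 well above the others. The log2 change of 0.80 ± 0.28 (adjusted p = 0.0392) missed the threshold without that library (0.52, adjusted p = 0.185), without any 1 of the untreated libraries (0.83, 0.82 and 0.74 without replicate 1, 2 and 3) and with the mitochondrial covariate (0.34, adjusted p = 0.389). In ELF-153 at 144 h it held 447.0, 536.8 and 583.1 with DAC, against 353.5, 347.0 and 342.7 untreated. The groups were apart (log2 change 0.58 ± 0.19, adjusted p = 0.027), but the call ended in 6 of 17 alternatives, with adjusted p from 0.0505 (replicate block) to 0.119 (covariate), including leaving out untreated replicate 2 (0.58) or 3 (0.57) or DAC-treated replicate 2 (0.55) or 3 (0.49). At 96 h ELF-153 held 468.8, 400.3 and 485.3 with DAC, against 212.8, 490.7 and 318.9 untreated, replicate 2 of which was above all treated libraries (log2 change 0.48 ± 0.28, adjusted p = 0.211), and without that library the change was 0.79 (adjusted p = 0.0352).

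FAM208A (TASOR), the scaffold of HUSH, fell in UCSD-AML1 at 144 h. It held 144.5, 169.7 and 164.4 scaled reads with DAC there, against 287.4, 349.0 and 200.4 untreated. The groups did not overlap (log2 change -0.77 ± 0.21, adjusted p = 0.00863), yet with protein-coding transcripts only the change was -0.22 (adjusted p = 0.382). In UCSD-AML1 at 96 h it held 260.7, 228.2 and 266.1 with DAC, against 385.9, 331.8 and 339.8 untreated. These groups were also apart, with a log2 change of -0.48 ± 0.20 that missed the threshold (adjusted p = 0.0729) and passed it when the 6 UCSD-AML1 libraries were fitted alone (adjusted p = 0.0189). In ELF-153 the groups overlapped, with 234.8 to 320.1 scaled reads with DAC against 222.3 to 352.8 untreated at 96 h (log2 change 0.01, adjusted p = 0.983) and 208.4 to 251.4 against 222.9 to 257.3 at 144 h (log2 change -0.12, adjusted p = 0.671).

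MPHOSPH8 (MPP8), the chromodomain subunit of HUSH, passed the test in no DAC comparison. In UCSD-AML1 at 144 h it held 424.3, 440.0 and 434.6 scaled reads with DAC, against 318.3, 289.5 and 412.7 untreated. The treated libraries lay above the untreated ones, and the log2 change of 0.36 ± 0.18 (adjusted p = 0.11) passed the test with edgeR and TMM (0.55, adjusted p = 0.0281), with DESeq2 (0.56, adjusted p = 0.016) and without untreated replicate 3 (0.51, adjusted p = 0.0272). In the other comparisons the groups overlapped, with 447.4 to 595.1 scaled reads with DAC against 385.5 to 453.0 untreated in UCSD-AML1 at 96 h (log2 change 0.26 ± 0.16), 596.7 to 635.0 against 535.8 to 658.7 in ELF-153 at 96 h (0.05) and 499.1 to 669.8 against 520.5 to 601.1 in ELF-153 at 144 h (0.12). The adjusted p was 0.22, 0.858 and 0.638 in these 3 comparisons.

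The transcripts behind the sums differed between members. CBX5-201 carried 99.9% of CBX5 reads at both harvests, SUV39H1-202 97.5% and 98.4% of SUV39H1 at 96 h and 144 h, MPHOSPH8-201 94.5% and 95.3% of MPHOSPH8, and MORC2-202 93.2% and 96.4% of MORC2, all protein coding. In 4 other members much of the sum came from transcripts annotated as retained introns: 55.2% and 46.9% for SETDB1, 50.5% and 50.6% for TRIM28, 44.9% and 53.9% for EHMT1, and 36.5% and 24.4% for FAM208A. The EHMT1 shares are of its 18 listed transcripts, out of 52 in GENCODE 29. With protein-coding transcripts only, SUV39H1 (log2 change -1.95, -2.37, -1.44 and -2.41 in UCSD-AML1 and ELF-153 at 96 h and then at 144 h), CBX5 (-1.56, -1.30, -1.50 and -1.43) and MORC2 (0.79, 0.47, 1.01 and 0.58) gave values close to those of the full sums. Of 36 member transcripts tested at 96 h, 1 rose and 3 fell in UCSD-AML1 (14.4% and 13.4% of all 33931 transcripts) and 0 rose and 4 fell in ELF-153 (13.3% and 8.4%). Of 26 tested at 144 h, 2 rose and 4 fell in UCSD-AML1 (17.9% and 18.3% of 31517) and 1 rose and 5 fell in ELF-153 (15.9% and 12.8%).

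In FAM208A the retained-intron transcript FAM208A-203 and the coding transcript FAM208A-201 did not move alike. FAM208A-203 averaged 84.4 ± 43.4 scaled reads with DAC and 198 ± 22.5 untreated in UCSD-AML1 at 96 h, and 21.2 ± 11.6 with DAC and 119 ± 84.4 untreated at 144 h (SD, n = 3). In ELF-153 it averaged 66.8 ± 66.4 with DAC and 20.7 ± 8.11 untreated at 96 h, and 43.8 ± 37.0 with DAC and 15.6 ± 12 untreated at 144 h. Its means were thus lower with DAC in UCSD-AML1 and higher in ELF-153, but no change passed the test (log2 change -1.36 and -2.12 in UCSD-AML1, adjusted p = 0.0894 and 0.0523; 1.24 and 1.38 in ELF-153, adjusted p = 0.133 and 0.213). In edgeR the UCSD-AML1 change at 144 h passed it (adjusted p = 0.0213). FAM208A-201 changed by 0.28 and -0.24 in UCSD-AML1 and by -0.36 and -0.46 in ELF-153 at 96 h and 144 h, with adjusted p of 0.135 or more. In EHMT1, the retained-intron transcript EHMT1-208 fell in ELF-153, averaging 6.23 with DAC and 32 untreated at 96 h (log2 change -2.16 ± 0.48, adjusted p = 0.00469), and another, EHMT1-217, rose in UCSD-AML1 at 144 h, averaging 26.0 with DAC and 6.67 untreated (2.29 ± 0.62, adjusted p = 0.0106). In SETDB1, the retained-intron transcript SETDB1-209 had low counts at 144 h and reached 10 scaled reads in 4 of 12 libraries. It averaged 3.4 with DAC and 10.2 untreated in UCSD-AML1 (-1.35, adjusted p = 0.0435). In ELF-153 it averaged 17.0 with DAC and 5.77 untreated (1.38, adjusted p = 0.0471). The DAC-treated ELF-153 libraries (10.1 to 26.6) carried it past the filter, so its call in ELF-153 was not independent of the filter. In TRIM28, the protein-coding transcript TRIM28-207 fell in UCSD-AML1 at 96 h (-0.99, adjusted p = 0.0382) and in ELF-153 at 144 h (-1.41, adjusted p = 0.00792).

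**Figure D4:**
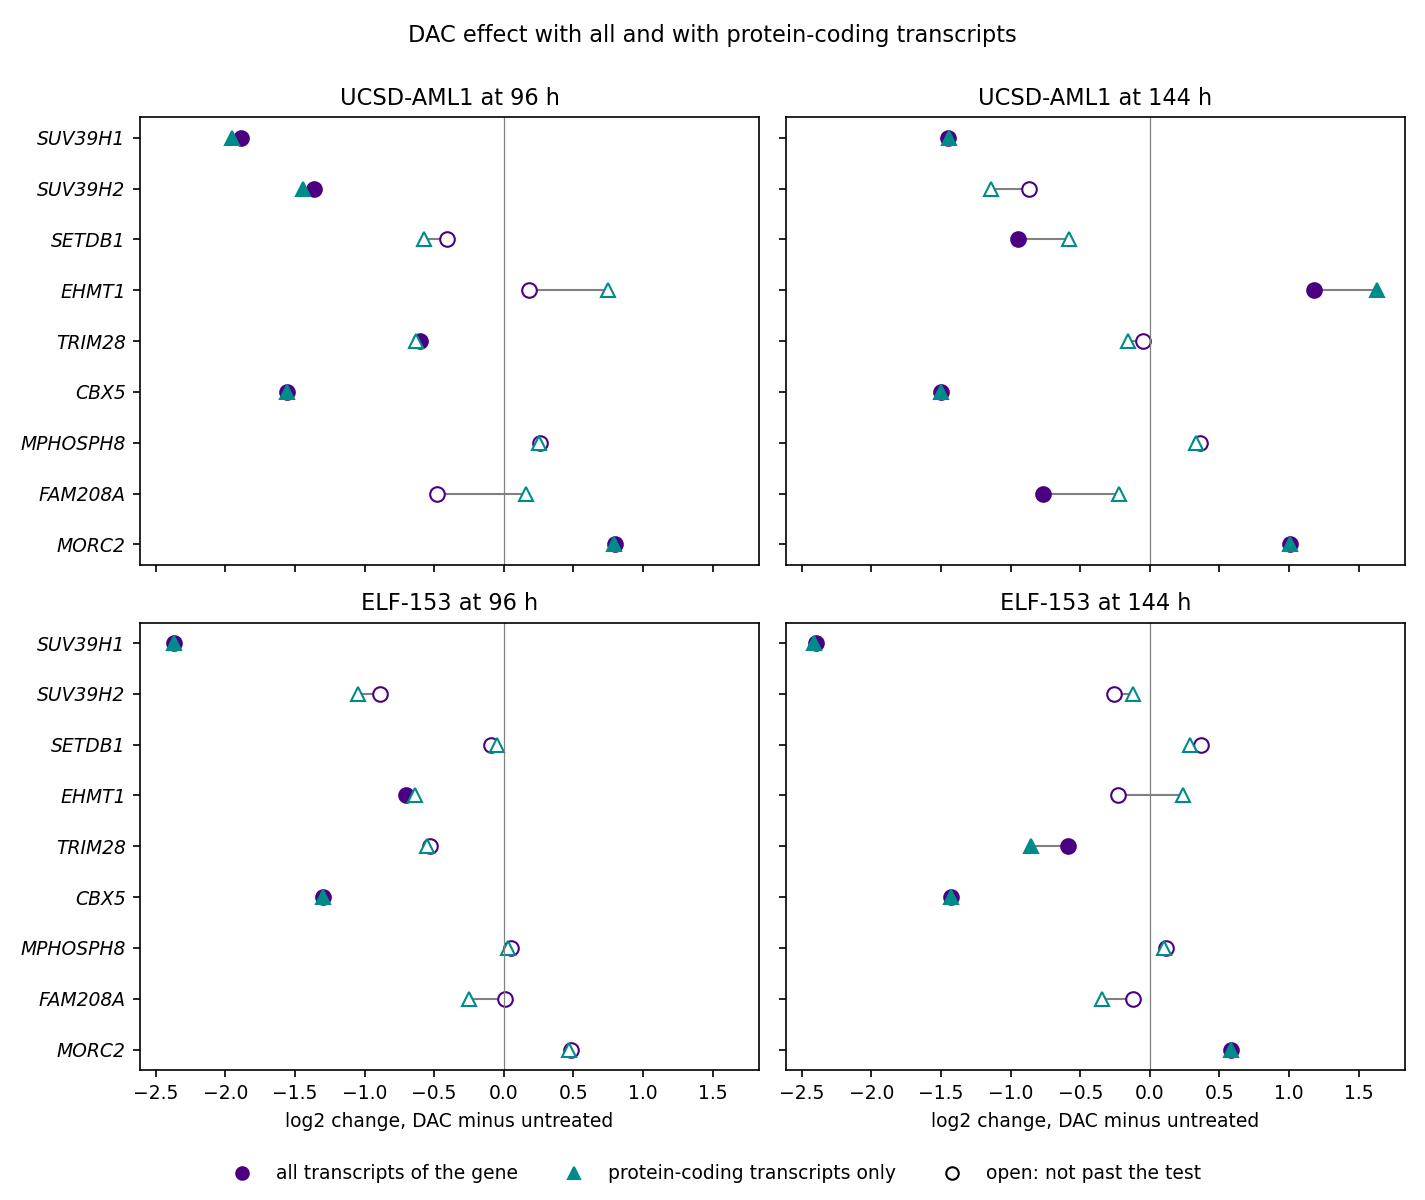
Log2 change (DAC minus untreated) of each tested member with all its transcripts and with protein-coding transcripts only, 1 panel per line and harvest; filled symbols passed an adjusted p of 0.05. SUV39H1, CBX5 and MORC2 keep their place, while FAM208A in UCSD-AML1 at 144 h moves to -0.22 with protein-coding transcripts, against -0.77 with all.

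Without DAC the lines themselves differed. Of the 9 members, 4 were higher in untreated ELF-153 than in untreated UCSD-AML1 at 96 h, where 22.8% of all genes tested were higher and 34.7% lower, and 6 were higher at 144 h, where 28.9% were higher and 22.9% lower. No member was lower in ELF-153 by limma at either harvest, nor at an unadjusted p under 0.05. SUV39H1 averaged 992 ± 288 scaled reads in untreated ELF-153 and 402 ± 27.8 in untreated UCSD-AML1 at 96 h (log2 difference 1.26 ± 0.21, adjusted p = 0.000165), and the difference was 1.74 ± 0.25 at 144 h (adjusted p = 7.53e-05). MORC2 was higher by 1.19 ± 0.28 (adjusted p = 0.0027) and 1.56 ± 0.19 (adjusted p = 1.63e-05), and kept this call in each alternative at both harvests. With the mitochondrial covariate the SUV39H1 difference at 96 h was 0.56 (adjusted p = 0.209), and at 144 h it was 0.91 (adjusted p = 0.00515), where the call held in each alternative. TRIM28 was higher by 0.58 ± 0.22 at 96 h (adjusted p = 0.0385) and 0.96 ± 0.20 at 144 h (adjusted p = 0.00165), and the covariate turned the 96 h value to -0.31 and ended the call at 144 h (0.38, adjusted p = 0.188). The TRIM28 call at 96 h also ended without untreated UCSD-AML1 replicate 1 (0.52) or 2 (0.56) or untreated ELF-153 replicate 1 (0.34, adjusted p = 0.162).

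MPHOSPH8 was higher in untreated ELF-153 by 0.47 ± 0.16 at 96 h (adjusted p = 0.0217) and 0.71 ± 0.18 at 144 h (adjusted p = 0.0048). The 96 h call ended without untreated UCSD-AML1 replicate 3 (0.40, adjusted p = 0.0894) or untreated ELF-153 replicate 2 (0.40, adjusted p = 0.0694), and the covariate ended both (0.58, adjusted p = 0.145, and 0.63, adjusted p = 0.0555). At 144 h EHMT1 was higher by 1.27 ± 0.36 (adjusted p = 0.0108) and CBX5 by 0.51 ± 0.18 (adjusted p = 0.0328). The EHMT1 call ended without replicate 2 of untreated UCSD-AML1 (0.97, adjusted p = 0.0545) or of untreated ELF-153 (1.01, adjusted p = 0.0549) and with the covariate (0.20, adjusted p = 0.741), and the CBX5 call in 9 of 17 alternatives. SETDB1, SUV39H2 and FAM208A passed at neither harvest, with log2 differences of -0.26, 0.02 and -0.41 at 96 h and -0.40, 0.54 and -0.15 at 144 h.

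**Figure D5:**
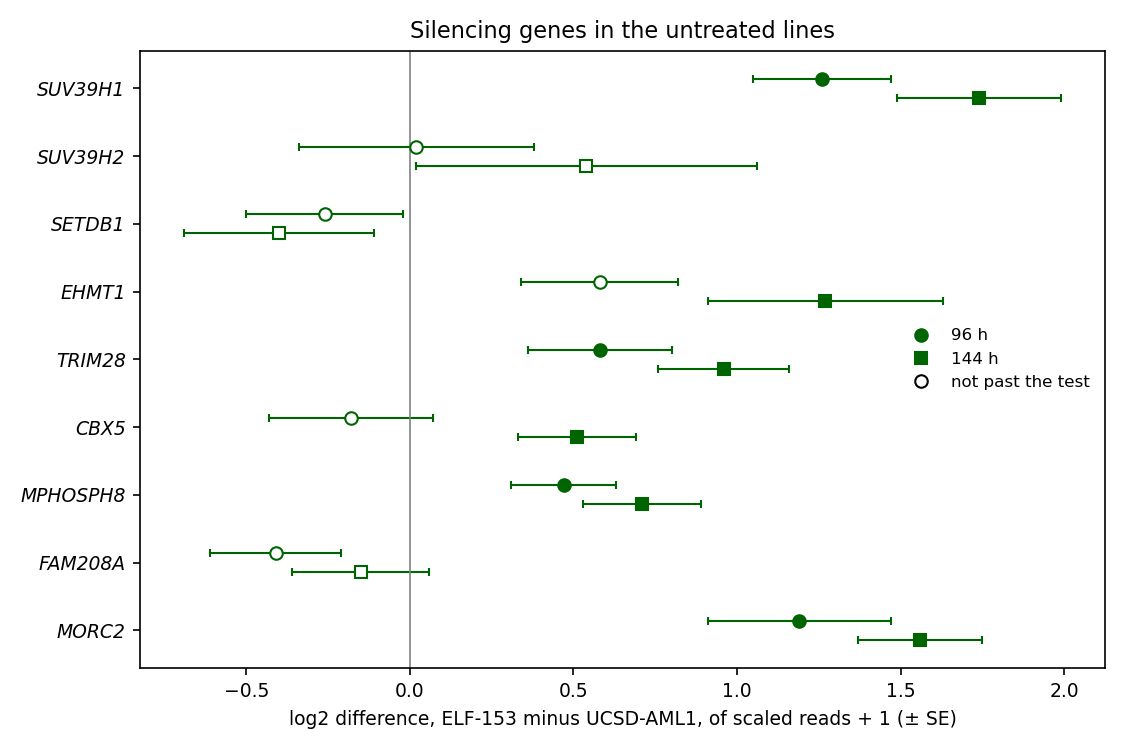
Log2 difference between the untreated lines (ELF-153 minus UCSD-AML1) with its standard error for each of the 9 tested members at 96 h and 144 h; filled symbols passed an adjusted p of 0.05. SUV39H1 and MORC2 lie above 1 at both harvests.

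Whether DAC changed a member differently in ELF-153 than in UCSD-AML1 was tested as the difference of the 2 changes. At 96 h no member passed by limma, although EHMT1 (-0.88 ± 0.34, unadjusted p = 0.0216) passed with edgeR and TMM (-1.08, adjusted p = 0.0422) and with DESeq2 (-1.07, adjusted p = 0.0339). Over all genes 16.4% were higher and 8.62% lower in this contrast. At 144 h, where 19.4% of genes were higher and 10.2% lower, SETDB1 passed, with a difference of 1.31 ± 0.41 (adjusted p = 0.0324) between its change in ELF-153 (0.37) and in UCSD-AML1 (-0.95). This call ended in 12 of 22 alternatives, among them edgeR with TMM (1.09, adjusted p = 0.0597) and leaving out untreated UCSD-AML1 replicate 1 (1.22) or 2 (1.17), DAC-treated UCSD-AML1 replicate 2 (1.23), untreated ELF-153 replicate 2 (1.03) or 3 (1.36) or DAC-treated ELF-153 replicate 2 (1.13). The stronger fall of SUV39H1 in ELF-153 at 144 h, -0.95 ± 0.35, missed the threshold (adjusted p = 0.056) and passed it with edgeR and TMM (-1.21, adjusted p = 0.0305). EHMT1 did likewise, at -1.41 ± 0.52 (adjusted p = 0.0551) and -1.60 (adjusted p = 0.0427), and it also passed with the replicate block (-1.41, adjusted p = 0.0306). For CBX5 the difference was 0.26 ± 0.36 at 96 h and 0.06 ± 0.26 at 144 h.

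Genes that act with the members were counted beside the shares of all genes. Counts below are for UCSD-AML1 at 96 h, ELF-153 at 96 h, UCSD-AML1 at 144 h and ELF-153 at 144 h, in that order. Over all genes tested, 19.7%, 20.1%, 20.0% and 20.4% rose and 19.6%, 12.7%, 26.2% and 18.0% fell. Many of the counts are near these shares, and no list was tested as a set. Of 9 partners of the H3K9 writers, 1, 1, 3 and 2 rose and 3, 2, 3 and 2 fell. Both subunits of the chromatin assembly factor CAF-1 on that list fell in each comparison, CHAF1A with log2 changes of -2.01, -1.94, -1.53 and -1.97 and CHAF1B with -3.77, -2.35, -4.26 and -2.74. Of 7 further HP1 partners and readers, 0, 3, 0 and 1 rose and 3, 1, 3 and 1 fell. LBR, which tethers HP1 to the nuclear lamina, fell in UCSD-AML1 (-2.43 and -2.30 at 96 h and 144 h) and in ELF-153 (-0.78 and -1.30). Its call in ELF-153 at 96 h ended without untreated replicate 1 (-0.45) or 3 (-0.85) or any of the DAC-treated libraries (-0.84, -0.73 and -0.76 without replicate 1, 2 and 3), and with the mitochondrial covariate the value was 0.04. SMCHD1, a protein of the inactive X chromosome, fell in UCSD-AML1 (-1.29 and -1.09) and changed by 0.36 and 0.16 in ELF-153. Of 5 HUSH partners 4 were tested, and 0, 2, 0 and 0 rose while 0, 0, 2 and 0 fell. The HUSH subunit PPHLN1 (periphilin) changed by -0.14, 0.80, -0.83 and 0.77 and passed in ELF-153 at 96 h, a call that ended without untreated replicate 1 (0.69) or DAC-treated replicate 2 (0.49) and with the covariate (0.18), and FAM208B, the paralog of FAM208A, changed by -0.58, 0.37, -1.11 and 0.27 and passed in UCSD-AML1 at 144 h.

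Enzymes that remove the mark and factors of neighbouring pathways were set beside them, in the same order and against the same shares of all genes. Of 9 tested H3K9 demethylases, 3, 2, 2 and 3 rose and 1, 2, 1 and 1 fell. KDM4A rose in each comparison (0.81, 0.59, 0.69 and 0.63). Of 9 tested heterochromatin chaperones and remodellers, 0, 1, 1 and 1 rose and 4, 2, 5 and 2 fell, with HELLS, a remodeller needed for DNA methylation, at -4.82, -1.73, -4.57 and -2.11, and the histone chaperone ASF1B at -3.68, -1.36, -3.41 and -1.43. Of 7 subunits and cofactors of the H3K27 methyltransferase PRC2, 1 rose in each comparison and 3, 1, 4 and 1 fell. Of 7 tested factors that restrict retroelement RNA, 0, 3, 0 and 3 rose and 3, 2, 3 and 3 fell. SAMHD1, a dNTP hydrolase, fell in UCSD-AML1 (-0.70 and -1.08) and rose in ELF-153 (1.74 and 2.39), and the RNase H2 subunit RNASEH2A fell in each (-1.63, -1.53, -1.71 and -2.18), with the ELF-153 calls ending with the covariate (-0.96 at 96 h and -1.10 at 144 h) and the UCSD-AML1 call at 144 h with protein-coding transcripts only (-1.50).

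Cell-state markers moved with treatment beside these genes, and their counts stand against the same shares of all genes. Of 30 proliferation markers, 28 fell in UCSD-AML1 and 21 of 29 tested in ELF-153 at 96 h, and 25 and 22 of 28 tested at 144 h; none rose. Their summed level was 4328 to 5272 scaled reads with DAC against 58822 to 63370 untreated in UCSD-AML1 and 14776 to 20926 against 41853 to 50232 in ELF-153 at 96 h, and 2343 to 2632 against 30598 to 46920 and 12508 to 17102 against 45782 to 61085 at 144 h. TPX2 and CENPE were at 0 in DAC-treated UCSD-AML1 at 144 h, and MKI67 fell in each comparison, with log2 changes of -3.01, -2.04, -3.50 and -1.70. All 11 megakaryocyte markers rose in UCSD-AML1 and 9 of 11 in ELF-153, at each harvest. They summed to 143404 to 173029 with DAC against 22690 to 27307 untreated in UCSD-AML1 and 11594 to 17855 against 939 to 1238 in ELF-153 at 96 h, and to 154460 to 176735 against 25229 to 27257 and 29278 to 39379 against 867 to 1009 at 144 h. Of 6 tested erythroid markers, 5, 4, 4 and 4 rose and 1, 0, 0 and 0 fell, and of 6 tested progenitor markers 0, 1, 0 and 1 rose and 3, 1, 3 and 2 fell. Erythroid markers summed to 2234 to 2644 with DAC against 631 to 663 untreated in UCSD-AML1 and 4081 to 6219 against 365 to 487 in ELF-153 at 96 h. Progenitor markers summed to 7165 to 8123 with DAC against 12558 to 13702 untreated in UCSD-AML1 and 8040 to 8416 against 8050 to 9519 in ELF-153 at 96 h. Few monocyte markers (1, 3, 1 and 2 of 3 tested rose) and lymphoid markers (2, 1, 1 and 1 of 3 tested rose and 1 fell in each) reached the filter. Of the non-blood markers none was tested at 96 h and 2 at 144 h, where 2 rose in UCSD-AML1 and 1 in ELF-153. The non-blood markers summed to at most 4.42 (UCSD-AML1) and 3.55 (ELF-153) scaled reads in untreated libraries at 144 h. Only DAC-treated libraries could thus carry them past the filter, and their rises were not independent of it. The part of the cell-state markers in the falls of SUV39H1 and CBX5 or in the rise of MORC2 was not tested.

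Repeat families, the targets of this machinery, were tabulated at 96 h only. They were classed by the start of their names alone (LTR, HERV, ERV, MLT, MST, THE and similar for LTR and endogenous retrovirus families). LTR families with other names are outside that class. Reads of 424 LTR and endogenous retrovirus families, divided by the gene table's size factors, summed to 263500, 236371 and 249924 in DAC-treated UCSD-AML1, against 139406, 144297 and 147573 in untreated cells. In ELF-153 they summed to 168193, 209075 and 178351 with DAC, against 100048, 149885 and 125896 untreated. The treated libraries lay above the untreated ones in both lines, narrowly in ELF-153. Of 401 families tested, 196 rose and 7 fell in UCSD-AML1 and 117 rose and 4 fell in ELF-153, where over all 1061 repeat families 33.6% rose and 2.07% fell, and 20.4% rose and 0.754% fell. On the authors' own scaling of the repeat table, which sets repeats against other repeats, 120 rose and 23 fell in UCSD-AML1 and 57 rose and 31 fell in ELF-153. Over all 1061 repeat families on that scaling, 186 rose and 199 fell in UCSD-AML1, and 92 rose and 73 fell in ELF-153. For LINE-1, the element HUSH acts on, 17 of 124 families rose and 1 fell in UCSD-AML1 and 19 rose and 0 fell in ELF-153 on the gene-table scaling, against 14 rising and 46 falling in UCSD-AML1 and 8 and 7 in ELF-153 on the authors' scaling.

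Genes whose pattern over the libraries was most like that of a member were sought among 6880 genes with a mean of 100 or more scaled reads in both tables, by Pearson correlation of log2 levels over the 12 libraries of a table; libraries share line, treatment and scaling, so the values are descriptions. SUV39H1 was closest to CARMIL2 and CHAF1A (r = 0.99 with each at both harvests), CBX5 to NOL9 (0.99 at 96 h and 0.97 at 144 h) and H2AFY (0.97 and 0.96), and MORC2 to CNNM2 (0.96 at both) and DNAH10OS (0.95 at both). TRIM28 was closest to PWP2 (0.93 and 0.98) and POLR2L (0.95 and 0.96), MPHOSPH8 to CENPBD1 (0.93 at both) and ZFHX2 (0.96 and 0.90), and FAM208A to ADSS (0.86 and 0.95) and LEMD3 (0.87 and 0.94). SETDB1 (SNHG1, 0.76 and 0.91; CHCHD2, 0.83 and 0.79), EHMT1 (UBE2O, 0.91 and 0.81; FOXK1, 0.81 and 0.88) and SUV39H2 (HIST2H2BE, 0.92 and 0.74; IQGAP3, 0.86 and 0.77) had looser neighbours. Between members, MPHOSPH8 and MORC2 correlated at 0.92 and 0.94, TRIM28 and SUV39H1 at 0.84 at both harvests, SUV39H1 and CBX5 at 0.77 and 0.86, and FAM208A and MORC2 at -0.66 and -0.21.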

How the data were processed

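Per the labels, RNA of 24 libraries (2 lines, with and without DAC, 2 harvests, 3 libraries a group) was sequenced as paired, stranded, ribosomal-RNA-depleted libraries. The build hg19 and the tools STAR, TopHat2, HTSeq, FastQC and DESeq2 are in the submitters' processing notes, with neither versions nor roles; how reads shared by transcripts were assigned, and the strand setting, are not given in the sources used here. The deposited values are signal: reads per transcript or repeat family divided by 1 size factor per library. Within 0.01, 100.0% of values were whole multiples of that step, so reads could be recovered for count tests.

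Transcripts were summed to genes by GENCODE 29 (GRCh38) identifiers: 181859 of 204940 (88.7%, 97.8% of the value) matched, and 23081 were tested on their own. Tests were two-sided in limma 3.58.1 (R 4.3.3; a mean per group, all 12 libraries of 1 harvest, robust eBayes with a trend) on log2(sum + 1) with Benjamini-Hochberg adjustment over all features tested; a fold change on this scale understates the change of low genes. Levels do not compare between genes. Alternatives were edgeR 4.0.16 (TMM, RLE), DESeq2 1.42.0, limma with TMM, pseudocounts 0.5 and 8, any read in 3 libraries, the 6 libraries of a comparison alone, a replicate block, the mitochondrial rRNA share as covariate, protein-coding transcripts only, the deposited scaling of the repeat table, and leaving out each library. DAC-treated and untreated libraries with equal numbers correlated across genes by 0.13, 0.12 and 0.26 in UCSD-AML1 at 144 h. This was the only case with each above 0.1. Libraries with unequal numbers reached 0.13 there (untreated replicate 2 with DAC-treated replicate 1), so the numbers are not taken as pairs. The block changed no member's call in UCSD-AML1 at 144 h. The 10 members, the 14 other lists and the rules were chosen with earlier results of these data known. Named were all members, of each other list outside the markers the 2 genes with the smallest adjusted p in each DAC effect (some are left out for length), MKI67, CCNA2 and E2F1, and the 2 genes most like each member. UHRF1, on the chaperone list, had no matched transcript. Reads of CERS2, DCLRE1C and CCDC66, which overlap members on the opposite strand, cannot be told apart from theirs if counting ignored strand. The script was tested on simulated data. Python 3.11.15, pandas 2.3.3, numpy 2.4.6, scipy 1.17.1 and matplotlib 3.10.9 made tables and figures.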

Additional observations from a re-analysis of the deposited data

Results flagged for a closer look

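Each result here is a difference between the lines in the DAC effect, given as the log2 change in ELF-153 minus that in UCSD-AML1, that passed limma's adjusted p of 0.05. Of the members, SETDB1 at 144 h did so (1.31). Among HP1 and HUSH partners, LBR (1.65 at 96 h and 0.99 at 144 h), LRIF1 (1.91 and 3.13), SMCHD1 (1.64 and 1.25), FAM208B (0.95 and 1.37), KIAA1551, also called RESF1 (2.94 and 3.87), and PPHLN1 (1.59 at 144 h) were above 0. In ELF-153 at 144 h the treated and untreated libraries of LRIF1, SMCHD1, FAM208B, KIAA1551 and PPHLN1 overlapped. With the mitochondrial covariate, the DAC change in ELF-153 at 96 h was 0.11 for LRIF1 and -0.04 for KIAA1551. Among chaperones, demethylases and other chromatin factors, CHAF1B (1.42 and 1.51), ASF1B (2.32 and 1.98), HELLS (3.09 and 2.45) and PHF19 (1.40 and 1.05) were so at both harvests, and KDM3A (1.06) and KMT5B (1.05) at 144 h. Of the factors acting on RNA, SAMHD1 (2.44 and 3.47), RNASEH2B (1.44 and 1.27) and ADAR (1.20 at 144 h) were above 0 and RNASEH2C (-1.07 at both) below. Of the proliferation markers, CCNA2 (3.16 and 3.69), E2F1 (1.14 and 0.90) and MKI67 (1.80 at 144 h) fell less in ELF-153.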

How the results depend on the processing

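Of the members' values outside left-out libraries, 447 kept direction and call, 38 lost and 9 gained the call, and 22 turned in direction; with a library left out, 227, 46, 5 and 10. Of those for other genes and transcripts, 1242, 80, 2 and 3 did so, and with a library left out 908, 132, 4 and 0.

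Protein-coding transcripts only left fewer genes to test. The genes past the threshold then numbered 4293 (UCSD-AML1), 3683 (ELF-153), 6172 (untreated lines) and 2987 (line difference) at 96 h, and 4868, 4233, 5542 and 3386 at 144 h, against 7374, 6152, 10810, 4706, 8440, 7019, 9467 and 5408 in full. With the mitochondrial covariate they numbered 3618 (ELF-153, 96 h), 4773 and 6089 (untreated lines, 96 h and 144 h) and 2606 (line difference, 144 h); the replicate block gave 639 repeat families in ELF-153, against 224. Leaving out a library gave 3268 to 7366 genes for the line difference at 144 h, and 240 to 326 (UCSD-AML1) and 116 to 501 (ELF-153) repeat families.

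Members past the threshold with the covariate were 3 (UCSD-AML1, 96 h), 2 (untreated lines, 96 h), 2 (ELF-153, 144 h), 3 (untreated lines, 144 h) and 0 (line difference, 144 h), against 5, 4, 4, 6 and 1. For the line difference, 1 member (EHMT1) passed at 96 h with edgeR TMM, edgeR RLE, DESeq2, limma with TMM, the replicate block and protein-coding transcripts only. At 144 h 2 passed with edgeR TMM, edgeR RLE and limma with TMM, 3 with DESeq2 and with pseudocount 8, and 0 with protein-coding transcripts only. Leaving out a library gave 3 to 5 (UCSD-AML1, 96 h), 2 to 4 (ELF-153, 144 h), and 0 to 1 and 0 to 4 for the line difference.

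Directions turned mostly in values that had not passed. In ELF-153 at 96 h, edgeR TMM, edgeR RLE, DESeq2 and limma with TMM gave FAM208A -0.07, -0.08, -0.08 and -0.04, and MPHOSPH8 -0.01, -0.02, -0.02 and 0.00; in UCSD-AML1 at 144 h they gave TRIM28 0.16, 0.18, 0.18 and 0.16. At 96 h, protein-coding transcripts gave FAM208A 0.16 in UCSD-AML1 and -0.25 in ELF-153; at 144 h they gave EHMT1 0.24 in ELF-153. The covariate gave, in ELF-153 at 96 h, MORC2 -0.17, MPHOSPH8 -0.03, TRIM28 0.12, KDM3A -0.17, KIAA1551 -0.04 and LBR 0.04; in ELF-153 at 144 h, EHMT1 0.74, SETDB1 -0.18 and SUV39H2 0.46; and TRIM28 -0.31 between the untreated lines at 96 h. With a library left out, EHMT1 in UCSD-AML1 at 96 h ran from -0.03 to 0.30, FAM208A, MPHOSPH8 and SETDB1 in ELF-153 at 96 h from -0.13 to 0.22, -0.03 to 0.12 and -0.32 to 0.10, TRIM28 in UCSD-AML1 at 144 h from -0.19 to 0.03 and EHMT1 in ELF-153 at 144 h from -0.52 to 0.03. The cause was not tested.

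TMM scaling moved the median of all genes by 0.12 (96 h) and 0.17 (144 h) in UCSD-AML1, by 0.24 and -0.12 between untreated lines and by -0.18 and -0.21 for the line difference. It set the share of higher genes among those past the threshold at 53.7% (43.3% without it) in UCSD-AML1 at 144 h, 50.3% (39.7%) between untreated lines at 96 h, and 53.7% (65.6%) and 51.9% (65.6%) for the line difference. The replicate block ended the MORC2 call in ELF-153 at 144 h (0.58, adjusted p = 0.0505). It also ended the TRIM28 difference between untreated lines at 96 h (0.58, adjusted p = 0.0533) and the SETDB1 line difference (1.31, adjusted p = 0.0619). With the block, TRIM28 in ELF-153 at 96 h passed (-0.53, adjusted p = 0.0411). The EHMT1 line difference passed as well, at 96 h (-0.88, adjusted p = 0.0446) and 144 h (-1.41, adjusted p = 0.0306). Counts under 25 scaled reads limit SUV39H2.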
